A study of Homo sapiens with 4 samples.

Results

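CUL4A, CUL4B, CUL1, CUL3, RBX1, DDB1, DDB2, DCAF7, DCAF13 and COPS5 are 10 genes of the cullin-RING ubiquitin ligase system, chosen by their symbols as partners and relatives of the CUL4B ligase (CRL4B). They are 10 of the 16878 genes in the expression tables, and each symbol matched 1 row in every library. The rule used no measured value, but the 10 genes and the lists described below were chosen with earlier results of these data known. RNA-seq was performed in PANC-1 cells, an established line from a human pancreatic ductal carcinoma, in 2 Control libraries and in 2 libraries of cells that had received siRNA to the NAD-dependent deacetylase SIRT1 for 48 h (siSIRT1). The labels do not say what the Control cells received, and they do not say whether the libraries of a group came from separate cultures, so the p-values measure the spread between these samples, which may be technical. The study lists a single siRNA to SIRT1, so loss of SIRT1 and other effects of the siRNA cannot be told apart. The comparison asks whether transcripts of the ligase that the study links to SIRT1 change when SIRT1 is depleted.

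A cullin-RING ligase is built on a long cullin scaffold. One end of the cullin holds a small RING protein that recruits the ubiquitin-loaded E2 enzyme, and the other end holds an adaptor and an exchangeable receptor that picks the substrate. In CUL4A and CUL4B ligases the adaptor is DDB1 and the receptors are DDB1-CUL4-associated factors (DCAFs), in CUL1 ligases the receptors are F-box proteins joined through SKP1, and in CUL3 ligases 1 BTB protein is adaptor and receptor together. Attachment of the ubiquitin-like protein NEDD8 switches the cullin on, and the COP9 signalosome, whose catalytic subunit is COPS5, removes it. The CUL4B ligase is known for mono-ubiquitinating histone H2A in repressed chromatin and for marking replication and repair proteins for degradation.

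The study lists 1 duplex for siSIRT1, and it is shown on the assumption that the cells sequenced received it, which the labels do not state. The antisense strand is given with its seed, bases 2 to 8, in capitals, and the last line is the SIRT1 mRNA stretch that pairs with the whole strand.
siSIRT1 sense strand: gugucaugguuccuuugca
siSIRT1 antisense strand: uGCAAAGGaaccaugacac
SIRT1 target: gtgtcatggttcctttgca
The complete 19-base target was found in 1 of 16562 canonical transcripts, that of SIRT1, where it spans coding bases of exon 5 and exon 6, out of 9 exons (GRCh37 chr10:69666687-69666694 and chr10:69667803-69667813, plus strand). Of the 10 genes, DDB1 alone held a match to the seed (CCTTTGC) in the 3' UTR of its canonical transcript, at transcript bases 3577 to 3583, shown with the match in capitals.
DDB1 3' UTR: ggcagggggccCCTTTGCtgaccctcccc
The canonical transcript of CUL3 held no such match. Only this seed site and the complete target were searched, in 1 canonical transcript per gene. Over all coding genes tested, the 1866 with a seed match in the 3' UTR had a median log2 fold change of 0.06, beside 0.08 in the 10074 without one. A match is a description of letters and not evidence of binding, and the lack of a match is not evidence on binding either. Whether the siRNA acted on any of the 10 genes directly was not tested.

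SIRT1 mRNA was at 10.46 and 10.25 FPKM in the Control pair, against 1.80 and 2.05 FPKM in the siSIRT1 pair, where FPKM counts fragments relative to transcript length and to the library's total. The siSIRT1 mean was 18.6% of the Control mean (log2 fold change -1.96, SE 0.11, limma adjusted p = 1.33e-05). Fold changes here and below are siSIRT1 minus Control of log2(FPKM + 1), and a gene passed at an adjusted p under 0.05 over all 12191 genes whose mean reached 1 FPKM. Libraries held an estimated 8700000 to 9200000 reads, and the FPKM of all genes summed to between 397094 and 426279, with the siSIRT1 sums above the Control sums. The epithelial keratins that mark PANC-1 were abundant (KRT8 at 2164 to 2745 FPKM, with KRT18 and KRT19 also high), KRT7 was low at 2.89 to 4.04 FPKM, and the mesenchymal marker VIM, which PANC-1 also expresses, was at 2198 and 2049 FPKM under Control conditions, compared with 1504 and 1427 FPKM after siSIRT1. Of the 6 markers in that list, KRT18 and KRT19 rose (each kept under 5 of 10 alternative settings) and VIM fell. KRT8 (0.25, limma adjusted p = 0.0513), EPCAM (0.52, limma adjusted p = 0.0555) and KRT7 (-0.10, limma adjusted p = 0.647) did not pass. KRT8 passed under 5 of the 10 alternatives and EPCAM under 1. EPCAM was at 5.34 and 6.70 FPKM in the Control pair, against 11.21 and 7.19 FPKM in the siSIRT1 pair. The part of these markers in the results below was not tested. Markers of other cell types summed to 1.72 to 2.00 FPKM, mostly PTPRC at 0.97 to 1.29 FPKM and PECAM1 at 0.59 to 0.75 FPKM. The acinar genes CPA1 and PRSS1 were at 0 in both siSIRT1 libraries and at no more than 0.15 FPKM in Control. INS and GCG, also listed as markers of other cell types, were not found by symbol among the 16878 genes and could not be analysed. In bulk RNA a smaller share of cells that express a gene and less RNA per cell cannot be told apart.

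All 10 genes passed the filter on low values and were tested. In siSIRT1, CUL3 fell, RBX1 and DCAF7 rose, and the other 7, among them both CUL4 scaffolds, DDB1 and COPS5, did not pass. The 3 genes called are 30% of the 10, beside 37.1% of all genes tested, with 24% of all genes called higher and 13.1% called lower in siSIRT1. Of the 4521 genes called, 64.8% were higher in siSIRT1, a share that was 50.2% of 4073 calls when the libraries were scaled by median of ratios. The median log2 fold change of the 10 was 0.11, beside 0.07 over all genes tested, and 0.03 beside 0.00 with that scaling. The groups did not overlap in 8 of the 10, beside 69% of all genes tested. With 2 libraries against 2, an exact permutation test of a single gene cannot give a p below 0.333, so each call rests on the spread that limma shares across genes.

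**Figure D1:**
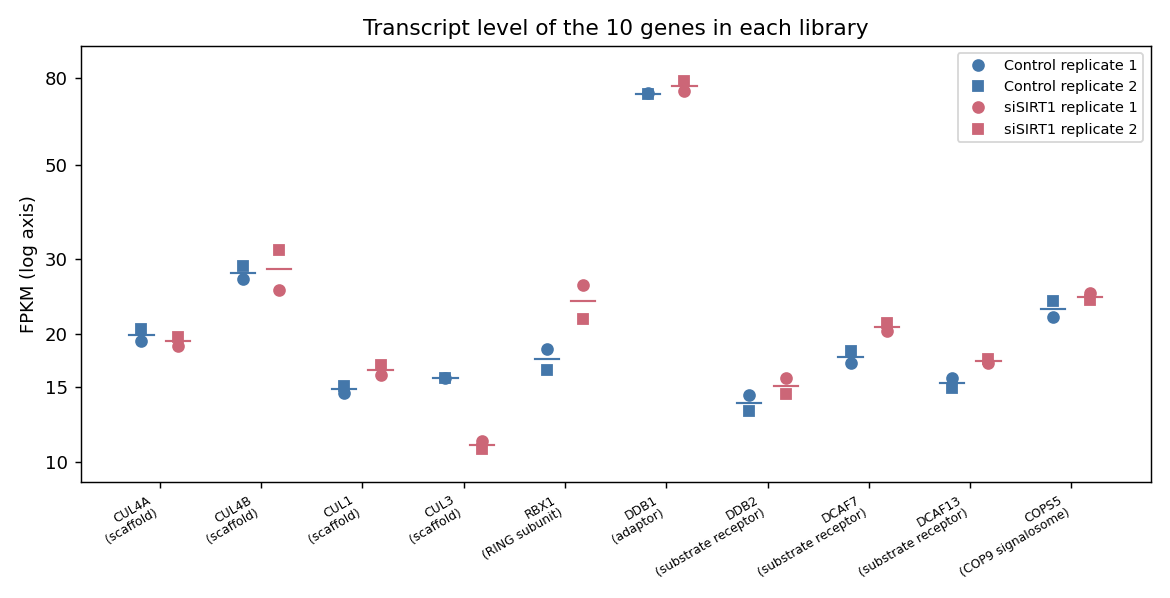
FPKM of each of the 10 genes in the 4 libraries (vertical log axis), with Control in blue and siSIRT1 in red, circles for replicate 1, squares for replicate 2 and a line at each group mean. CUL3 lies at 15.76 and 15.78 FPKM in the Control pair, against 10.74 and 11.20 FPKM in the siSIRT1 pair, and for CUL4A and CUL4B the ranges of the groups overlap.

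The CUL4 scaffolds come first. CUL4B (gene 8450, GRCh37 chrX:119657713-119694817, minus strand) encodes the scaffold of the ligase that the study links to SIRT1. Its level was 26.94 and 28.85 FPKM under Control conditions, compared with 25.35 and 31.49 FPKM after siSIRT1. The siSIRT1 libraries held both the lowest and the highest value, so the groups overlapped. The log2 fold change was 0.02 (95% interval -0.21 to 0.25, limma adjusted p = 0.903), and its sign turned to negative under 6 of the 10 alternative settings, where the lowest value was -0.06. An estimated 1287 to 1672 reads lay behind each value. Of all genes tested, 95.2% had a larger change in size than CUL4B.

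CUL4A (gene 8451, GRCh37 chr13:113863927-113921422, plus strand) encodes the close paralog of CUL4B. It was at 19.22 and 20.52 FPKM in the Control pair, against 18.79 and 19.74 FPKM in the siSIRT1 pair, and the groups overlapped. The log2 fold change was -0.04 (95% interval -0.22 to 0.13, limma adjusted p = 0.703). The lower ends of the limma intervals, -0.21 for CUL4B and -0.22 for CUL4A, lay above the estimate for CUL3, -0.49. The width of these intervals rests on the spread that limma shares across genes, so they do not exclude such a fall by the values of each gene alone. CUL4A has 1 named pseudogene and shares exonic bases with PCID2 on the opposite strand, and whether counting used strand is not stated.

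CUL4B was the more abundant of the pair per length in all 4 libraries. The ratio of CUL4A to CUL4B was 0.713 and 0.711 in the Control libraries, against 0.741 and 0.627 in the siSIRT1 libraries, means of 0.712 ± 0.00154 and 0.684 ± 0.0809 (SD, n = 2 each). The siSIRT1 ratios fell on either side of both Control ratios. CUL4B made up 58.4% of the summed CUL4A and CUL4B FPKM in Control and 59.5% in siSIRT1, on average.

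CUL3 (gene 8452, GRCh37 chr2:225334867-225450080, minus strand, 16 exons) encodes the scaffold for BTB receptors such as KEAP1 and SPOP. Its level was 15.78 and 15.76 FPKM under Control conditions, compared with 11.20 and 10.74 FPKM after siSIRT1. Both siSIRT1 values lay well under both Control values, and the Control pair was nearly equal. The siSIRT1 mean was 69.6% of the Control mean (log2 fold change -0.49, 95% interval -0.67 to -0.30, limma adjusted p = 0.00221). The fall passed in all 10 alternative settings and in all 4 fits that left out 1 library. Behind the values lay an estimated 948 and 968 reads per Control library and 651 and 652 per siSIRT1 library. CUL3 has no exonic overlap with another gene in the annotation. A change as large or larger in size was seen in 16.6% of all genes tested.

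CUL1 (gene 8454, GRCh37 chr7:148395995-148498202, plus strand) encodes the scaffold of the SKP1 and F-box ligases. It was at 14.58 and 15.11 FPKM in the Control pair, against 16.03 and 16.96 FPKM in the siSIRT1 pair. Both siSIRT1 values were the higher ones, but the difference did not pass (log2 fold change 0.14, 95% interval -0.04 to 0.32, limma adjusted p = 0.196). CUL3 and CUL1 were at nearly equal levels in Control, and the ratio of CUL3 to CUL1 went from 1.08 and 1.04 in Control to 0.699 and 0.633 in siSIRT1. The ratio was thus lower in both siSIRT1 libraries than in either Control library.

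RBX1 (gene 9978, GRCh37 chr22:41347382-41369313, plus strand) encodes the RING subunit shared by CUL1, CUL2, CUL3, CUL4A and CUL4B. It was at 18.41 and 16.49 FPKM under Control conditions, compared with 26.11 and 21.76 FPKM after siSIRT1. Both siSIRT1 libraries were above both Control libraries, and the siSIRT1 pair was spread by more than the Control pair. The siSIRT1 mean was 137% of the Control mean (log2 fold change 0.43, 95% interval 0.20 to 0.66, limma adjusted p = 0.0102). The rise passed under 9 of 10 alternatives (adjusted p from 0.000262 to 0.0639, the latter without a filter on low values), and without Control replicate 2 it was 0.36 with an adjusted p of 0.0705. RBX1 has a short transcript of 1169 bases, with an estimated 165 to 247 reads per library, and 2 named pseudogenes whose reads the counting could have split.

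Transcript length moved with the fold changes of all genes. The median log2 fold change was 0.16 in the shortest of 5 groups of genes of about equal number ordered by transcript length (248 to 1786 bases) and 0.00 in the longest (5697 to 34626 bases). With each library's trend on length removed, RBX1 was at 0.26 (limma adjusted p = 0.0319) and CUL3, whose transcript is 6756 bases long, was at -0.49 (limma adjusted p = 0.00156).

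**Figure D2:**
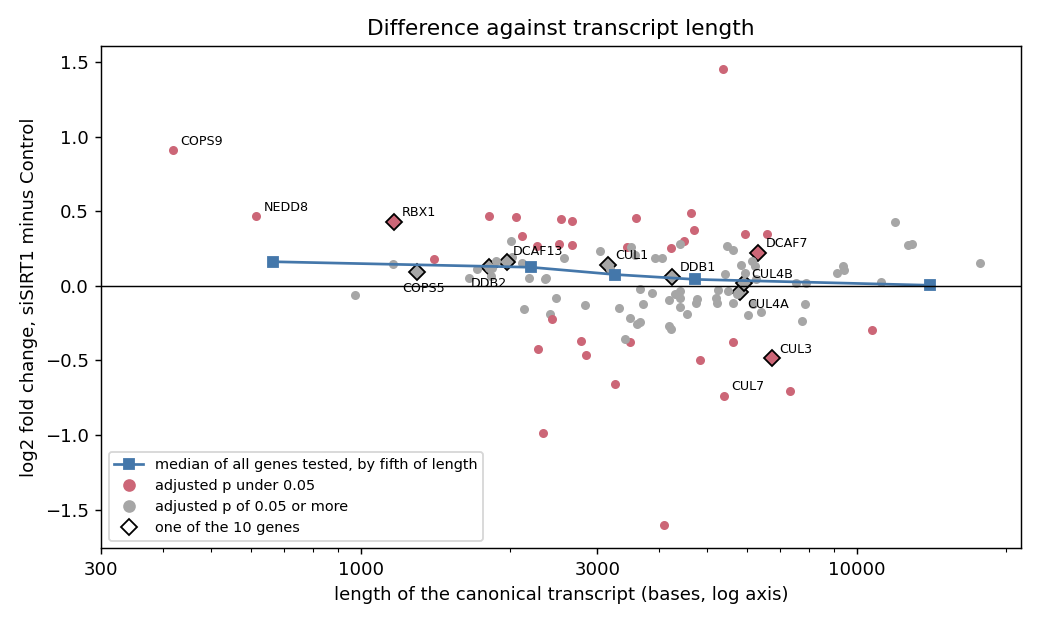
Log2 fold change of the genes of the cullin-RING system (vertical axis, siSIRT1 minus Control of log2(FPKM + 1)) against transcript length in bases (log axis), with the 10 genes as diamonds and squares for the median of all genes tested in each of 5 groups by length, placed at the middle of the group on the log axis. The median falls from 0.16 to 0.00 with length, and RBX1 lies above the squares while CUL3 and CUL7 lie below.

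DDB1 (gene 1642, GRCh37 chr11:61066923-61100577, minus strand) encodes the adaptor that joins CUL4 to its receptors, and was the most abundant of the 10 genes. It was at 73.70 and 73.20 FPKM in the Control pair, against 74.58 and 78.72 FPKM in the siSIRT1 pair. The siSIRT1 values were the higher ones, the lower of them close to Control, and the difference did not pass (log2 fold change 0.06, 95% interval -0.08 to 0.20, limma adjusted p = 0.464). Its sign turned negative under 5 of the 10 alternatives, where the lowest value was -0.03. DDB1 transcripts per length exceeded those of CUL4B 2.74-fold and 2.54-fold in Control and 2.94-fold and 2.50-fold in siSIRT1. DDB1 carries the seed match shown above, and it shares exonic bases with TKFC on the opposite strand.

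Among the substrate receptors, DCAF7 (gene 10238, GRCh37 chr17:61627838-61671628, plus strand) encodes a WD40 protein that also binds DYRK1A kinase. It was at 17.15 and 18.21 FPKM under Control conditions, compared with 20.36 and 21.22 FPKM after siSIRT1. Both siSIRT1 values were higher, with the siSIRT1 mean at 118% of the Control mean (log2 fold change 0.22, 95% interval 0.05 to 0.40, limma adjusted p = 0.0488). This call lies at the threshold. It passed under 3 of 10 alternatives (adjusted p from 0.0269 to 0.187) and in none of the 4 fits that left out 1 library (adjusted p from 0.0547 to 0.314), with the sign positive in each.

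DDB2 (gene 1643, GRCh37 chr11:47236525-47260768, plus strand) encodes the receptor that recognizes ultraviolet-damaged DNA. It was at 14.38 and 13.20 FPKM in the Control pair, against 15.76 and 14.50 FPKM in the siSIRT1 pair. The gap between the groups was smaller than the spread within either group, and the difference did not pass (log2 fold change 0.13, 95% interval -0.08 to 0.33, limma adjusted p = 0.299). DCAF13 (gene 25879, GRCh37 chr8:104427614-104455681, plus strand) encodes a nucleolar WD40 protein needed for ribosome assembly. It was at 15.80 and 14.93 FPKM under Control conditions, compared with 17.10 and 17.45 FPKM after siSIRT1, higher in both siSIRT1 libraries (log2 fold change 0.16, 95% interval -0.02 to 0.34, limma adjusted p = 0.144). Neither receptor passed under any alternative.

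COPS5 (gene 10987, GRCh37 chr8:67955314-67974368, minus strand) encodes the metalloprotease subunit of the COP9 signalosome. It was at 21.88 and 23.90 FPKM in the Control pair, against 24.98 and 24.03 FPKM in the siSIRT1 pair. The lower siSIRT1 value exceeded the higher Control value by less than the spread of either pair, and the difference did not pass (log2 fold change 0.10, 95% interval -0.08 to 0.27, limma adjusted p = 0.359). With the length trend removed its sign turned negative, at -0.06. COPS5 shares exonic bases with CSPP1 on the opposite strand, and DCAF13 does so with SLC25A32. COPS5 has 2 named pseudogenes and DCAF13 has 3, so their counts are uncertain in the same way as that of RBX1.

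In the order of mean level over the 4 libraries, DDB1 was first, followed by CUL4B, COPS5, RBX1, CUL4A, DCAF7, DCAF13, CUL1, DDB2 and CUL3. DDB1 exceeded 92.5% of all genes tested and CUL3 57.6%, so all 10 lay in the upper part of the range. The ranges of DDB1 and CUL4B over the 4 libraries did not overlap with that of the next gene in this order, whereas from COPS5 down each did. The order was not fixed within libraries, as in siSIRT1 replicate 1 RBX1 at 26.11 FPKM stood above CUL4B at 25.35 FPKM. In Control CUL3 stood above CUL1 and DDB2 in both libraries, and in siSIRT1 it was the lowest of the 10 in both.

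**Figure D3:**
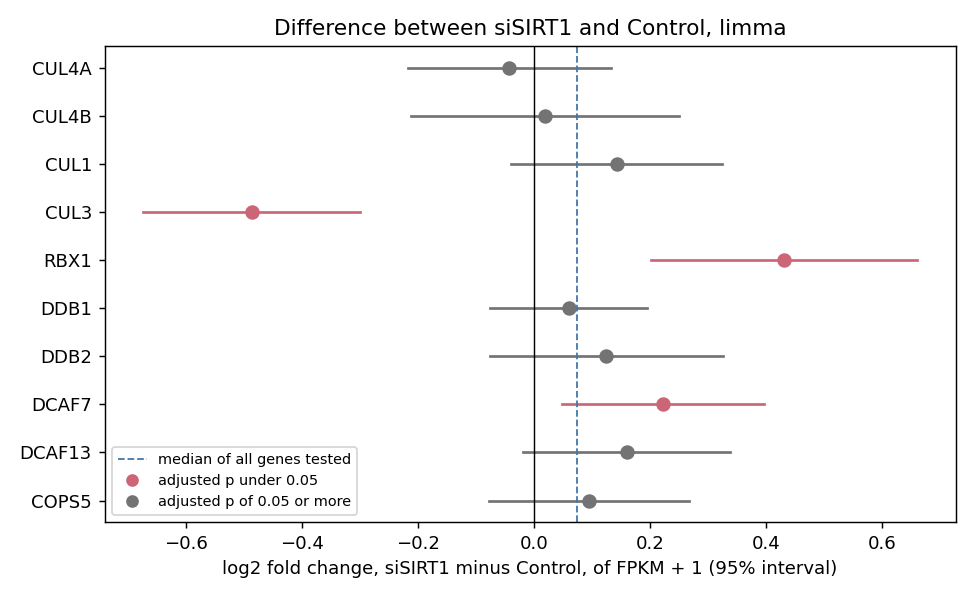
Log2 fold change of each of the 10 genes (horizontal axis, siSIRT1 minus Control of log2(FPKM + 1)) with its 95% interval from limma, in red where the adjusted p was under 0.05, with the median of all genes tested as a dashed line at 0.07. CUL3 at -0.49 and RBX1 at 0.43 lie farthest from 0, and the interval of DCAF7 has its lower end at 0.05.

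The promoters of the genes called on opposite sides, CUL3 and RBX1, and of DCAF7 are shown as the 160 bases before the transcription start (RefSeq, GRCh38.p14), 5' to 3' on the gene's strand. Capitals mark GGGCGG or its complement CCGCCC, the letters bound by SP factors, and CCAAT or ATTGG, the letters bound by NF-Y. Matches may overlap.
CUL3 promoter, chr2:224585364-224585523, minus strand: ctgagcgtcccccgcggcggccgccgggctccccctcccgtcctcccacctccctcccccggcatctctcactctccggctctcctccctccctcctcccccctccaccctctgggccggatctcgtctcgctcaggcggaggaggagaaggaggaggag
RBX1 promoter, chr22:40951218-40951377, plus strand: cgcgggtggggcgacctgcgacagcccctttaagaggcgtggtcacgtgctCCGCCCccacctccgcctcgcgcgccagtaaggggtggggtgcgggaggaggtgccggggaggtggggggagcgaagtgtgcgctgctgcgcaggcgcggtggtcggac
DCAF7 promoter, chr17:63550317-63550476, plus strand: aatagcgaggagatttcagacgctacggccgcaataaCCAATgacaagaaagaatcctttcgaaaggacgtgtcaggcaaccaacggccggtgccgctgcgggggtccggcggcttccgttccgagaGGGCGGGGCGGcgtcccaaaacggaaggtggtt
In the 250 bases before the start, GGGCGG on either strand occurred 1 time in CUL3, 5 times in RBX1 and 3 times in DCAF7, and in each of the 8 genes with a promoter sequence used here, as in 58.1% of 19368 promoters. CCAAT occurred in DCAF7 alone of the 8, 3 times, and in 32.5% of all promoters. Neither CCGGAAG, bound by ETS factors (11.8% of promoters), nor TGACG, part of the CRE (25.5%), was found in any of the 8. These counts describe letters in a window and say nothing of the factors.

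The other parts of the system were described by lists of genes of the same role. Of the 8 cullins, 2 fell and none rose in siSIRT1, 25% called beside 37.1% of all genes tested (13.1% lower), and their median log2 fold change was -0.11 beside 0.07 for all genes. Besides CUL3, CUL7, the scaffold of the FBXW8 ligase, fell from 26.48 and 25.90 FPKM in Control to 15.16 and 15.46 FPKM in siSIRT1 (log2 fold change -0.74, limma adjusted p = 0.000157). Both siSIRT1 values lay far under the Control values, and CUL7 passed under all 10 alternatives, though it shares exonic bases with KLC4 on the opposite strand. CUL9 (-0.24), CUL5 (-0.12) and CUL2 (-0.09) did not pass, and CUL9 passed under 4 of the 10 alternatives. CUL3 made up 12.5% and 12.1% of the summed cullin FPKM in Control and 10.6% and 9.19% in siSIRT1, while CUL4B made up 21.4% and 22.2% in the Control pair, against 24.0% and 26.9% in the siSIRT1 pair. The level of CUL4B itself did not pass (0.02), and the summed cullin FPKM was 126.1 and 129.86 in the Control libraries and 105.45 and 116.83 in the siSIRT1 libraries.

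Of the 7 RING subunits and adaptors, 2 rose and none fell, 28.6% called, near the 24% of all genes called higher and below the 37.1% called in all. The median was 0.19, and 0.11 with median-of-ratios scaling. The second, beside RBX1, was RNF7, the RING partner of CUL5, at 20.69 and 19.56 FPKM under Control conditions, compared with 26.51 and 22.61 FPKM after siSIRT1 (log2 fold change 0.27, limma adjusted p = 0.0431). The RNF7 call was kept under 2 of 10 alternatives (adjusted p from 0.00786 to 0.165). The ratio of RBX1 to CUL4B was 0.683 and 0.572 in the Control libraries, against 1.03 and 0.691 in the siSIRT1 libraries, so the lower siSIRT1 ratio stood close to the higher Control ratio.

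Of the 25 CUL4 substrate receptors, 5 rose and 1 fell, 24% of the list beside 37.1% of all genes, and their median was 0.05 (-0.02 with median-of-ratios scaling). Besides DCAF7, DCAF12 rose from 10.77 and 10.71 FPKM in Control to 14.79 and 15.39 FPKM in siSIRT1 (log2 fold change 0.45, limma adjusted p = 0.00324). WDTC1 (0.37, limma adjusted p = 0.0108) and DCAF5 (0.35, limma adjusted p = 0.0166) also rose, and DET1, which recruits COP1, fell (-0.42, limma adjusted p = 0.0299). Without Control replicate 1 only 1 of the 25 receptors passed, and without Control replicate 2 only 2 did.

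All 10 COP9 signalosome subunits, COPS5 among them, had estimates above 0, although COPS4 and COPS7A turned negative under other scalings and COPS5 and GPS1 with the length trend removed. Of the 10, 6 passed, all higher, 60% of the list beside 37.1% called and 24% called higher among all genes tested, where 7327 of 12191 estimates were above 0. The median of the 10 was 0.22, and it was 0.14 with median-of-ratios scaling and 0.11 with the length trend removed, beside 0.07, 0.00 and 0.00 for all genes. Summed over the complex, FPKM went from 258.97 and 256.24 in the Control libraries to 306.67 and 300.65 in the siSIRT1 libraries. COPS9, the smallest subunit, rose from 11.34 and 10.94 FPKM to 23.46 and 20.29 FPKM (log2 fold change 0.91, limma adjusted p = 0.000181), on an estimated 34 to 69 reads per library. COPS3 rose from 21.10 and 20.55 FPKM to 29.74 and 28.55 FPKM (log2 fold change 0.47, limma adjusted p = 0.00121), and its groups lay far apart. With the length trend removed, the rise of COPS9, whose transcript has 418 bases, was smaller at 0.62. That of COPS3 was 0.34, and both passed. COPS2 (0.34), COPS7B (0.28), COPS8 (0.26) and COPS6 (0.18) passed with smaller rises, while GPS1 (0.12), COPS5 (0.10), COPS7A (0.07) and COPS4 (0.05) did not pass. COPS5, the catalytic subunit, thus stood among the 4 smallest estimates of its complex. Of the subunits that passed, COPS2 shares exonic bases with GALK2 and COPS7B with PDE6D, each on the opposite strand. COPS8 has 3 named pseudogenes and COPS3 has 1, so these 4 counts are uncertain as well. Under each of the 4 other scalings between libraries, and with the length or the GC trend removed, 3 of the 10 subunits passed. Without Control replicate 1, and likewise without Control replicate 2, 2 of the 10 passed.

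In a list of genes of the NEDD8 cycle, which COPS5 opposes, and of cullin exchange, 1 of 13 tested genes passed, 7.69% beside 37.1% of all genes tested. That gene, NEDD8 itself, rose from 80.81 and 75.60 FPKM to 111.74 and 105.48 FPKM (log2 fold change 0.47, limma adjusted p = 0.000752). Its transcript of 616 bases shares exonic bases with the readthrough gene NEDD8-MDP1, and with the length trend removed the fold change was 0.22. The median of the list was 0.15, and it was 0.06 with median-of-ratios scaling and 0.04 with the length trend removed.

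**Figure D4:**
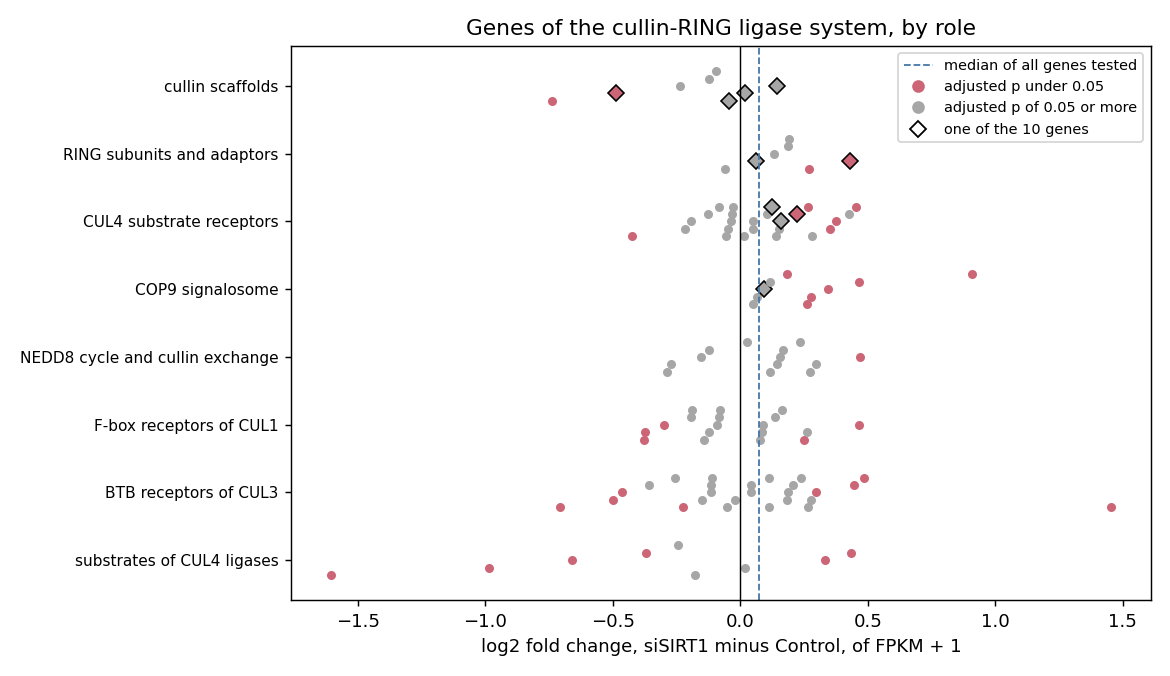
Log2 fold change (horizontal axis, siSIRT1 minus Control of log2(FPKM + 1)) of every tested gene of the cullin-RING system, 1 row per role, with the 10 genes as diamonds and the median of all genes tested as a dashed line at 0.07. The COP9 row lies wholly right of 0 at this scaling (COPS4 and COPS7A turned negative under others), the cullin row has its called genes at -0.74 and -0.49, and the receptor rows spread to both sides.

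The receptors that work with CUL3 and CUL1 moved both ways. Of 26 BTB receptors tested, 4 rose and 4 fell, 30.8% called beside 37.1% of all genes tested (24% higher and 13.1% lower), with a median of 0.04 (-0.02 with median-of-ratios scaling). SPOP, a CUL3 receptor, fell from 13.33 and 12.70 FPKM to 8.85 and 9.49 FPKM (log2 fold change -0.46, limma adjusted p = 0.00444), and KLHL24 (-0.71) and ENC1 (-0.50) fell too. RHOBTB3 rose from 11.31 and 11.56 FPKM to 29.94 and 36.61 FPKM (log2 fold change 1.46, limma adjusted p = 2.64e-05), with KLHL18 (0.49) and KLHL22 (0.45) next. Of 18 F-box receptors, 2 rose, FBXO7 (0.47) and CCNF (0.25), and 3 fell, FBXL5 (-0.38), FBXW7 (-0.37) and FBXO22 (-0.30), 27.8% called beside 37.1% of all genes tested, with a median of -0.08. In the 4 fits without 1 library, FBXO7 passed in each, FBXL5 and FBXW7 in 1 and CCNF and FBXO22 in 0, and CCNF passed under 2 of the 10 alternatives.

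Transcripts of 9 known substrates of CUL4 ligases were also counted, although the ligase acts on their proteins, which were not measured. Of these 9, 2 rose and 4 fell, 66.7% called beside 37.1% of all genes tested (24% higher and 13.1% lower). The 9 were chosen with earlier results of these data known, so the share describes this list and not CUL4 substrates in general. CDT1, the replication licensing factor, rose from 10.89 and 11.15 FPKM to 15.32 and 15.21 FPKM (log2 fold change 0.44, limma adjusted p = 0.00367), and CDKN1A, the p21 cell cycle inhibitor, also rose (0.33, limma adjusted p = 0.00357). The ETS factor ETV5 fell from 24.28 and 26.81 FPKM to 7.20 and 8.25 FPKM (log2 fold change -1.61, limma adjusted p = 1.44e-05), and ETV4 (-0.98) and JUN (-0.66) also fell.

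**Figure D5:**
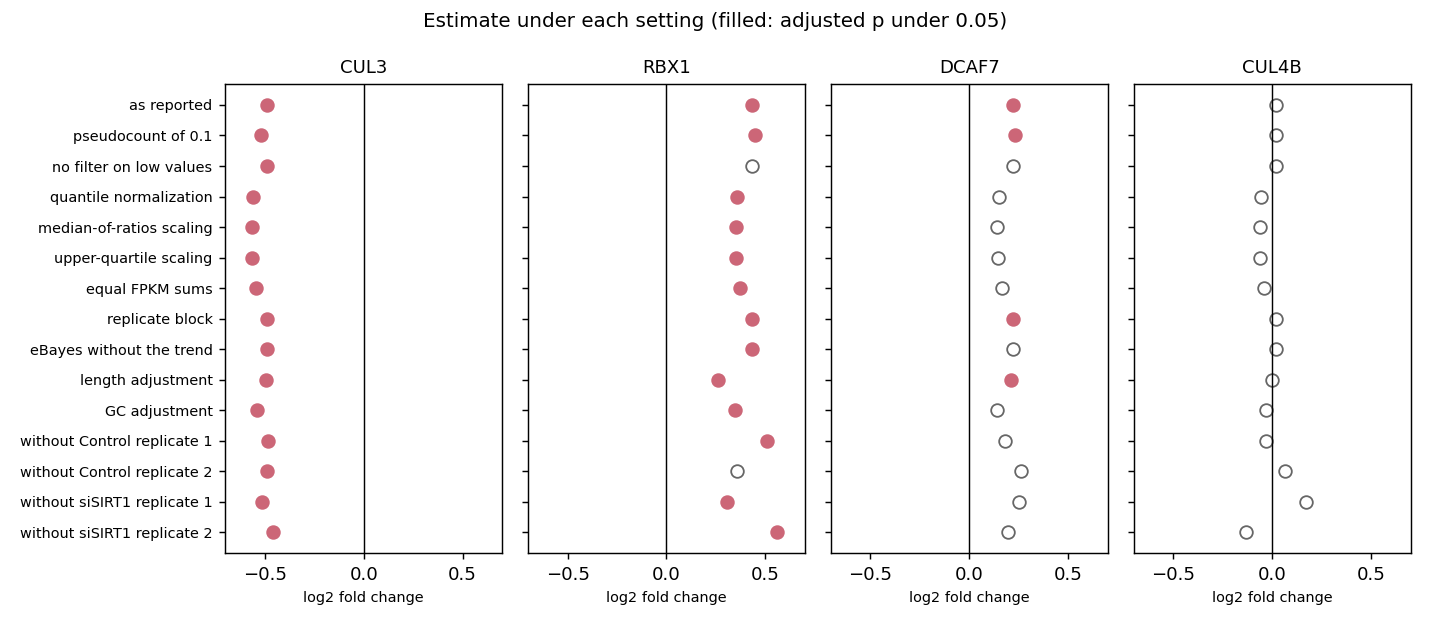
Log2 fold change of CUL3, RBX1, DCAF7 and CUL4B (horizontal axis, siSIRT1 minus Control) under the setting reported, the 10 alternative settings and the 4 fits without 1 library, with filled symbols where the adjusted p was under 0.05. CUL3 is filled throughout, RBX1 is open without a filter and without Control replicate 2, DCAF7 is open in most settings, and CUL4B is open throughout and on both sides of 0.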

How the data were processed

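The authors deposited 1 table of FPKM values per library for 16878 genes, each named by Entrez identifier and symbol. The submitters' processing notes name HISAT, Bowtie2 and RSEM, with no version or role, and the genome build, the filters and the use of strand for the RNA-seq are not given in the sources used here. FPKM is scaled to the library total, so abundant genes that change can shift all others. Identifiers were matched to current symbols in a RefSeq table (16846 of 16878).

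Groups came from the labels, 2 libraries each. The 12191 genes whose mean over all 4 libraries reached 1 FPKM were fitted on log2(FPKM + 1) by limma 3.58.1 (R 4.3.3; lmFit, then eBayes with trend = TRUE), without a block. P-values are two-sided and adjusted by the Benjamini-Hochberg method over all 12191 genes, with a threshold of 0.05. The test was checked on simulated data.

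The 10 genes and the lists were chosen with earlier results of these data known. Named are SIRT1, the 10 genes, all cullins and COP9 subunits, the markers, and in each further list up to 3 of the highest and 3 of the lowest fold changes past the threshold. Sums and ratios use FPKM.

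Depth was estimated from the steps of low FPKM values of 61 to 77 genes per library, with a length offset of 80 bases. Step scores were 0.588 to 0.728, beside at most 0.466 for jittered values. Reads per gene are approximate, being derived from this depth and the length of the canonical transcript. Gene positions, lengths and 3' UTRs are from GENCODE release 44 on GRCh37, and promoters are RefSeq on GRCh38.p14. The siRNA sequence is the study's. Alternatives are named with their effect in the closing section.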

Additional observations from a re-analysis of the deposited data

How the results depend on the processing

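The 10 alternatives were 0.1 as the pseudocount, keeping genes of low level, quantile normalization, median-of-ratios, upper-quartile and equal-sum scaling, a replicate block, eBayes without the trend, and removal of each library's lowess trend (span 0.3) on transcript length or on GC content. The last 2 were chosen after seeing the data. SIRT1 and CUL3 passed under all 10, with log2 fold changes from -2.37 to -1.96 and from -0.56 to -0.49. Leaving out 1 library gave 2691 to 4608 genes past the threshold instead of 4521 (2744 without Control replicate 1 and 2691 without Control replicate 2), 1 to 2 of the 10 genes instead of 3, 1 to 7 of the CUL4 receptors instead of 6 and 2 to 4 COP9 subunits instead of 6. It put the ratio of CUL4A to CUL4B at 0.711 to 0.713 in Control and 0.627 to 0.741 in siSIRT1. Without a filter on low values 1 of the 10 genes (CUL3) and 3 receptors passed, where adjustment ran over 16453 genes. Under quantile, median-of-ratios, upper-quartile and equal-sum scaling and the length and GC adjustments 3 COP9 subunits passed, and the cause was not tested. The share of called genes that were higher, 64.8% in the reported fit, was 53.3%, 50.2%, 51.3%, 55.6%, 49% and 50.7% in that order.

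For the named genes besides SIRT1, the alternatives kept direction and side of the threshold 426 times, lost it 60 times, newly passed it 10 times and turned the sign 24 times. Fits without 1 library did so 146, 48, 4 and 10 times. Signs turned in that same order of settings for genes that did not pass. CUL4B was at -0.056, -0.062, -0.060, -0.041, -0.0019 and -0.032. DDB1 was at -0.017, -0.023, -0.020, -0.0011 and, for GC, -0.034. COPS4 was at -0.015, -0.026, -0.023, -0.0051, -0.078 and -0.0035. COPS7A was at -0.0073, -0.013, -0.011 for the first 3, -0.058 for length and -0.034 for GC. For length, COPS5 was at -0.059 and GPS1 at -0.0049. Without 1 library CUL4A ranged from -0.087 to 0.0028, CUL4B from -0.13 to 0.17, CUL5 from -0.33 to 0.085, COPS4 from -0.11 to 0.21, COPS7A from -0.10 to 0.23, KRT7 from -0.28 to 0.090 and PTPRC from -0.17 to 0.048.

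The labels do not say whether libraries with the same number share anything besides that number. The difference between replicate 1 and replicate 2 in Control correlated at 0.123 with that in siSIRT1, over the 12191 genes tested. Under the replicate block 5393 genes passed, among them RBX1, DCAF7 and CUL3 with unchanged estimates, 8 of the CUL4 receptors and the SIRT1 fall of -1.96. The number of libraries, 2 a group, and the reads behind short transcripts, such as 34 to 69 for COPS9, limit the precision of single values.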
